A study of Mus musculus with 18 samples.

Results

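Beta-cell identity rests on a small set of transcription factors, and 9 of them were followed here in MIN6 cells, a mouse insulinoma line that makes insulin and is used as a beta-cell model. The genes were taken by symbol, as Mafa, Pdx1, Nkx2-2, Nkx6-1, Neurod1, Isl1, Pax6, Foxa2 and Insm1, with no threshold on measured values. All 9 of 9 had at least 1 transcript with reads in every library, which made them 9 of the 6929 genes tested. Control cells received the solvent DMSO for 18 h. Treated cells received 200 µM cyclopiazonic acid (CPA), which blocks the calcium pump of the endoplasmic reticulum (ER), for 1 h (CPA1, acute ER stress) or 18 h (CPA18, chronic ER stress). Each treatment was read by mRNA-seq and by Ribo-seq, which sequences the mRNA fragments covered by ribosomes, in 3 independent experiments, giving 18 libraries. The CPA1 cells had no solvent control of their own duration among these libraries.

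These factors bind DNA at enhancers and promoters of islet genes and at one another's genes, so that each helps to maintain the others. MafA, Pdx1 and NeuroD1 together activate the insulin promoters, and the Nkx, LIM and paired homeodomain factors hold the endocrine and beta-cell fates. FoxA2 opens chromatin for the others, and Insm1 is a zinc-finger repressor of transcription that takes part in endocrine development. The loss of several of them is a known feature of stressed or dedifferentiating beta cells.

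In RefSeq on GRCm38.p6, the mouse build of the deposited tables, 5 of the 9 genes lie on chromosome 2. They are Neurod1 (chr2:79452637-79456636, minus strand), Pax6 (chr2:105668896-105698410, plus strand), Insm1 (chr2:146221997-146225020, plus strand), Nkx2-2 (chr2:147176485-147195434, minus strand) and Foxa2 (chr2:148042877-148046969, minus strand). Chromosome 5 holds Nkx6-1 (chr5:101659184-101664711, minus strand) and Pdx1 (chr5:147270097-147275848, plus strand). Isl1 lies at chr13:116298270-116309688 and Mafa at chr15:75745501-75748321, both on the minus strand. Mafa and Insm1 are annotated with 1 exon, whereas the Pax6 transcripts have 10 to 13 exons.

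The reads were deposited per transcript, and the values below are sums per gene of RPKM, the read count scaled to transcript length and library total. Pax6 is the sum of 7 of its 8 listed transcripts, Foxa2 of 3 of 3, and Nkx2-2 of 1 of 2, while the other 6 genes have 1 listed transcript each. Shared sequence was searched in the GENCODE transcripts of mouse, not in the RefSeq transcripts on which the reads were counted. Between 0.0% (Mafa, Pdx1) and 6.81% (Neurod1) of the windows of 28 nucleotides in these genes' GENCODE transcripts also occur in a transcript of another gene. A further 8.91% of windows for Nkx2-2 and 4.89% for Neurod1 occur in a transcript of the opposite strand. No source used here states that strand was used in counting, so part of the reads of both genes could belong to other transcripts.

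Promoter windows from RefSeq (GRCm38.p6, 250 bases before to 50 bases after a start site) matched 7 of the 9 genes with 10 windows. Mafa and Insm1 had no entry. The 250 upstream bases are shown 5′ to 3′ for 3 genes that fell and for Foxa2, which followed another course, with each match to a searched motif in capitals.
Pdx1, chr5:147269847-147270096, plus strand: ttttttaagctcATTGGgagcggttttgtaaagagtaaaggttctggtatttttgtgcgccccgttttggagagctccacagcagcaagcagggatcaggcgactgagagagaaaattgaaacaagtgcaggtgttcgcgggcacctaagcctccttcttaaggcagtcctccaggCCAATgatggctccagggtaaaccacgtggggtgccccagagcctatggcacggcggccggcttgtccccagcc
Isl1, chr13:116309689-116309938, minus strand: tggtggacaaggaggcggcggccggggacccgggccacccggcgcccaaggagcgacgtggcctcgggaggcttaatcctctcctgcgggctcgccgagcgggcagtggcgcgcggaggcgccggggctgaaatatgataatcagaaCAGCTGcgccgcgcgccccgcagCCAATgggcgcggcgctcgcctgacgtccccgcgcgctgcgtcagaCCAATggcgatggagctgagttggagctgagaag
Pax6, internal start site, chr2:105682213-105682462, plus strand: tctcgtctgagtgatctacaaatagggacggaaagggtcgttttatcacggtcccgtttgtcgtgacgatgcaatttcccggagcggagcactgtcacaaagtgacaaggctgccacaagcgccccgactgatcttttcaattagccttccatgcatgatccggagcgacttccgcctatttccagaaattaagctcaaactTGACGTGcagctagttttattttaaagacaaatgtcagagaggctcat
Foxa2, chr2:148046970-148047219, minus strand: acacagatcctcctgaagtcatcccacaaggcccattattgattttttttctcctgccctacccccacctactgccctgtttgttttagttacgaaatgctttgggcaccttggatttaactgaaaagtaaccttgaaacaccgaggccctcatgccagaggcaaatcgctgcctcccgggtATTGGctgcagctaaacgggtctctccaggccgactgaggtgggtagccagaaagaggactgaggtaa

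Both strands of each 300-base window were searched for 8 motifs. TGATGNAA, the composite element of the stress factors ATF4 and CHOP, was in 0 of the 10 windows and in 3.97% of all 32851 promoter windows. The core of the unfolded protein response element, TGACGTG, was in 1 window, that of the internal Pax6 start, and in 2.01% of all promoters. The ER stress response element, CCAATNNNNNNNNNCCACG, was in 0 windows and in 0.119% of all promoters. The forkhead motif TGTTTAC and the homeodomain motif TAATTA were each in 0 windows, against 3.65% and 5.29% of all promoters. The E-box CAGCTG was in 1 window (Isl1) against 16.3%, and the TATA box TATAAA in 1 window (an internal Foxa2 start) against 13.6%. The CCAAT box, whose letters are also the first part of the ER stress response element, was in 4 windows against 37.4%. A window without a match says only that these letters are not in it, and enhancers were not searched.

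In control cells, levels of the 9 mRNAs spanned from 11.2 ± 6.88 RPKM for Nkx2-2 to 329 ± 152 for Mafa (mean ± SD, n = 3). Mafa was followed by Pdx1 at 176 ± 14.1 and Insm1 at 144 RPKM (123 to 162), whose libraries overlapped with each other. Nkx6-1, Pax6, Neurod1, Foxa2 and Isl1 came next, between 65.6 and 34.8 RPKM, and each overlapped with its neighbour in this order. The steps from Mafa to Pdx1, from Insm1 to Nkx6-1 and from Isl1 to Nkx2-2 were without overlap between libraries, and no other step was. Mafa stood at percentile 97.2 and Nkx2-2 at percentile 53.8 of all genes tested.

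The order was different in the ribosome footprints of control cells. Pdx1 was highest at 255 ± 40.1 RPKM, Nkx6-1 reached 184 ± 40.4, and Mafa was at 155 ± 81.7. From Pdx1 through Insm1, Nkx6-1, Neurod1 and Mafa to Isl1, each gene overlapped with the next. Genes further apart could still be separate. All Pdx1 libraries (220 to 299 RPKM) were above those of Nkx6-1 (at most 217), Isl1 (at most 176) and Neurod1 (at most 173). The steps from Isl1 to Pax6, to Foxa2 and to Nkx2-2 were without overlap, but Mafa (103 to 249 RPKM) also overlapped with Pax6 (96.6 to 125). Nkx2-2 was again lowest, at 15.4 ± 6.53 RPKM. Its counts were 19 to 51 reads in control Ribo-seq and 2 to 9 reads in CPA18 Ribo-seq, so its values are the least precise of the 9. These are reads of the 1 transcript kept, which had 477 reads over all libraries. The transcript left out by the filter had 275.

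Library totals were 520960 to 4755030 reads in mRNA-seq and 168129 to 1083297 in Ribo-seq, and the 9 genes together had 348 to 6139 reads per library. Ins1 and Ins2 took 6.60% to 20.9% of control mRNA-seq reads and 1.44% to 5.06% of CPA18 mRNA-seq reads. Reads assigned to Lars2 took 4.75% to 54.8% of an mRNA-seq library, and 0.0830% to 3.51% of a Ribo-seq library. Whether they come from that mRNA or from another RNA was not tested. These shares enter every RPKM, and the median gene had a log2 fold change of +0.38 (mRNA-seq) and +0.42 (Ribo-seq) in CPA18 against control. The control mRNA-seq library of experiment 1, the shallowest of its assay, stood apart, with a mean correlation over genes of 0.888 with the other mRNA-seq libraries and 0.881 with the Ribo-seq libraries. The descriptions of the control libraries of experiment 2 name the opposite assay from their titles. The library titled mRNA-seq had a mean correlation of 0.930 with the other mRNA-seq libraries and 0.825 with the Ribo-seq libraries. Titles were followed, and results are given without the control libraries of experiment 2 where they change.

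All 10 beta-cell markers (Ins1, Ins2, Iapp, Slc2a2, Slc30a8, G6pc2, Ucn3, Pcsk1, Pcsk2, Abcc8) had reads in all 18 libraries, and their summed mRNA level was 155275 to 457818 RPKM in control and 42771 to 131642 in CPA18 libraries. Of 6 alpha-cell markers, Gcg (21.7 to 235 RPKM) and Ttr (128 to 3318 RPKM) were read in all libraries, and the summed mRNA level was 954 to 2631 RPKM in control and 151 to 404 in CPA18. The other 4 were at 0 in 2 to 13 libraries and at most 7.48 RPKM. Of 4 duct markers Krt7 was at 102 to 384 RPKM, Krt19 and Sox9 were at most at 1.52, and the duct sum was 125 to 312 RPKM in control and 102 to 308 in CPA18 mRNA-seq. The sums stayed at or under 10.2 RPKM for 3 delta, 19.7 for 2 PP, 1.20 for 5 acinar, 2.16 for 5 fibroblast and 4.29 for 3 immune markers in every library. Of all these lists, Ghsr (delta), Prss2 and Ptf1a (acinar), Cftr (duct), Col3a1 (fibroblast), Ptprc and Cd3e (immune) had no row in the tables used here, so they have no value and the sums leave them out. In bulk RNA, fewer cells of a type and less RNA per cell cannot be told apart. The part of such shifts in the results below was not tested.

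The first question was what 1 h of CPA did to these mRNAs. None of the 9 mRNAs was called changed (edgeR quasi-likelihood test, experiment as block, Benjamini-Hochberg adjusted p from 0.581 to 0.993), with 1 of 9 at an unadjusted p under 0.05, as 6.57% of all genes were. The SEs were 0.24 to 0.35 log2 units, so moderate changes could go uncalled. In all genes 0.505% rose and 0.433% fell, so few calls were made anywhere in this comparison, and DESeq2 and limma also called none of the 9. The member with the smallest p was Foxa2, at 44.6, 28.8 and 40.4 RPKM in the control libraries of experiments 1 to 3 and at 53.7, 52.6 and 66.2 RPKM in CPA1. Its groups did not overlap, as in 1.73% of all genes with higher CPA1 libraries, but its log2 fold change of +0.63 ± 0.28 (SE) did not pass (adjusted p = 0.581). The median of the 9 log2 fold changes was +0.07, beside −0.12 for all genes.

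**Figure D1:**
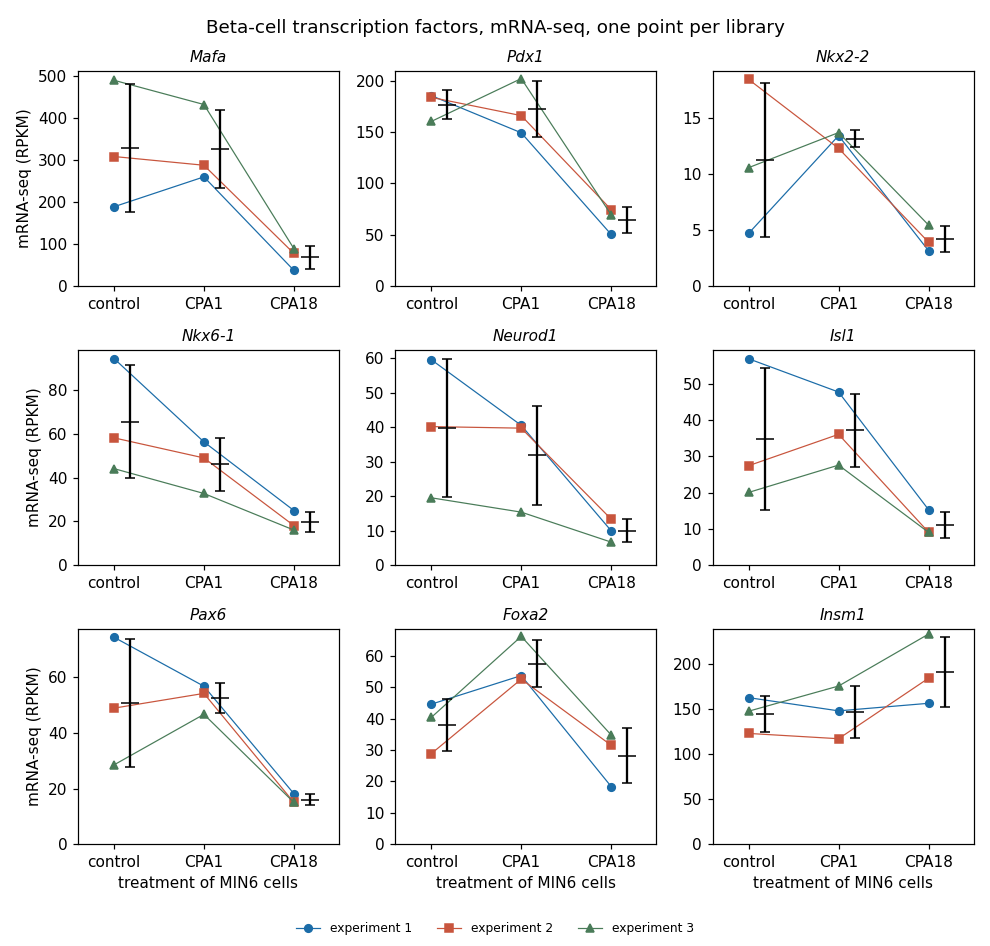
mRNA-seq level (RPKM, linear axis from 0) of each transcription factor in control, CPA1 and CPA18 cells; coloured points joined by lines are the libraries of experiments 1 to 3, and black bars are mean ± SD. For Mafa, Pdx1, Nkx6-1, Neurod1, Isl1 and Pax6 the CPA18 points lie under every control point, and for Insm1 the groups overlap.

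After 18 h of CPA, 7 of the 9 mRNAs fell and 0 rose against control, while among all genes 7.89% fell and 27.0% rose. The 7 were Mafa, Neurod1, Nkx6-1, Pax6, Isl1, Nkx2-2 and Pdx1, with log2 fold changes from −2.25 to −1.46. Foxa2 and Insm1 did not pass. The median over the 9 genes was −1.55, beside +0.38 over all genes. All 7 were lower in each of the 3 experiments, as were 14.4% of all genes, and for 6 of them (all but Nkx2-2) the control and CPA18 libraries did not overlap, as for 5.43% of all genes.

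Mafa, the basic leucine zipper activator of insulin transcription, fell most. Its level was 188, 308 and 489 RPKM in control, 260, 287 and 432 RPKM in CPA1, and 37.1, 77.5 and 88.9 RPKM in CPA18, in the order of the experiments. Control and CPA1 libraries interleaved, and all CPA18 libraries were under the lowest of either. The log2 fold change against control was −2.25 ± 0.26 (adjusted p = 8.95e-15), a 4.77-fold lower level, and only 26 of the 6929 genes had a more negative fold change.

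Neurod1, the basic helix-loop-helix partner of MafA and Pdx1 at the insulin promoters, had the next largest fall. It was at 59.7, 40.2 and 19.5 RPKM in control and 9.94, 13.3 and 6.65 RPKM in CPA18. The log2 fold change was −1.89 ± 0.31 (adjusted p = 7.01e-08). Control libraries differed widely between experiments, and within experiments 1 to 3 the log2 ratios were −2.58, −1.59 and −1.55.

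Pdx1, the homeodomain factor required for pancreas formation and for insulin expression, was steadier among controls. Its level was 185, 184 and 160 RPKM in control, 149, 166 and 202 RPKM in CPA1, and 50.1, 74.4 and 69.3 RPKM in CPA18. The log2 fold change at CPA18 was −1.46 ± 0.25 (adjusted p = 2.80e-07), a 2.74-fold lower level.

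The homeodomain factors of endocrine and beta-cell fate fell by similar amounts. Nkx6-1, which represses the alpha-cell programme, went from 94.5, 58.2 and 44.1 RPKM in control to 24.9, 18.0 and 16.0 RPKM in CPA18 (log2 fold change −1.69 ± 0.29, adjusted p = 5.29e-07). Isl1, a LIM homeodomain factor, went from 57.0, 27.4 and 20.1 to 15.3, 9.07 and 9.03 RPKM (−1.55 ± 0.30, adjusted p = 8.59e-06). Both had their highest control value in experiment 1, and both groups were separate.

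Pax6, the paired-domain factor of all islet endocrine cells, went from 74.5, 48.9 and 28.5 RPKM to 18.1, 15.0 and 15.0 RPKM (−1.57 ± 0.26, adjusted p = 1.78e-07). Nkx2-2, which acts upstream in endocrine differentiation, was at 4.68, 18.4 and 10.5 RPKM in control and 3.14, 3.90 and 5.43 RPKM in CPA18, from 5 to 62 reads a library. Its groups overlapped, because control of experiment 1 was under CPA18 of experiment 3. The log2 fold change was −1.50 ± 0.37 (adjusted p = 6.47e-04), and without the control libraries of experiment 2 it was −0.89 ± 0.49 (adjusted p = 0.183). With no filter, which adds the other Nkx2-2 transcript, it was −1.22 ± 0.36 (adjusted p = 0.00665).

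Foxa2, the forkhead pioneer factor of endoderm, was at 18.3, 31.5 and 34.8 RPKM in CPA18, and its log2 fold change against control was −0.39 ± 0.29 (adjusted p = 0.287). It was lower in 2 of 3 experiments. Relative to the median gene its change was −0.78, and it was called lower under TMM factors (−0.78, adjusted p = 0.00888), after centring libraries on the median gene (−0.74, adjusted p = 0.0111), by DESeq2 (−0.78, adjusted p = 0.00695) and when the totals excluded Ins1, Ins2 and Lars2 (−0.63, adjusted p = 0.0326). Over all alternatives its adjusted p ranged from 0.00695 to 0.932.

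Insm1 went the other way. Its level was 162, 123 and 147 RPKM in control, 148, 117 and 175 RPKM in CPA1, and 156, 184 and 233 RPKM in CPA18. The groups overlapped, and the log2 fold change of +0.41 ± 0.24 did not pass (adjusted p = 0.183). Relative to the median gene the change was +0.02. Because the others fell, Insm1 made up 16.2% ± 2.12 of the summed RPKM of the 9 mRNAs in control and 46.2% ± 2.85 in CPA18 (SD, n = 3), whereas Mafa went from 36.5% ± 14.7 to 16.0% ± 4.19. In CPA18 Insm1 was the highest of the 9 mRNAs, above Mafa and Pdx1 without overlap. The summed level was 836 to 960 RPKM in control, 814 to 1011 in CPA1 and 333 to 478 in CPA18.

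The call of the mRNA falls depended on the pairing by experiment. Without the replicate block only 1 of the 9, Mafa (log2 fold change −2.28, adjusted p = 0.0372), passed in CPA18 against control, where 0.548% of all genes were called lower in place of 7.89%, and the fold changes of the other 6 stayed between −1.97 and −1.45 with adjusted p from 0.0675 to 0.115. After centring libraries on the median gene, 16.1% of all genes were called lower and 15.4% higher, and 8 of the 9 were called lower.

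At CPA1, 2 of the 9 mRNAs, Nkx6-1 and Neurod1, were lower in 3 of 3 experiments without passing the test. This share is near the 18.3% of all genes, and the Neurod1 log2 ratio in experiment 2 was only −0.016. In CPA18 against CPA1, 8 of the 9 mRNAs fell and 0 rose, while 5.77% of all genes fell. The 8 included Foxa2, at −1.02 ± 0.28 (adjusted p = 0.00167), and Mafa was again lowest at −2.32 ± 0.26 (adjusted p = 1.69e-15). The groups of all 8 did not overlap, as for 4.96% of all genes. Insm1 was at +0.39 ± 0.24 (adjusted p = 0.184). Without the replicate block 1 of the 9 passed (Mafa, adjusted p = 0.0427), and 0.592% of all genes were called lower. The 3 comparisons share their libraries in pairs and are not independent.

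**Figure D2:**
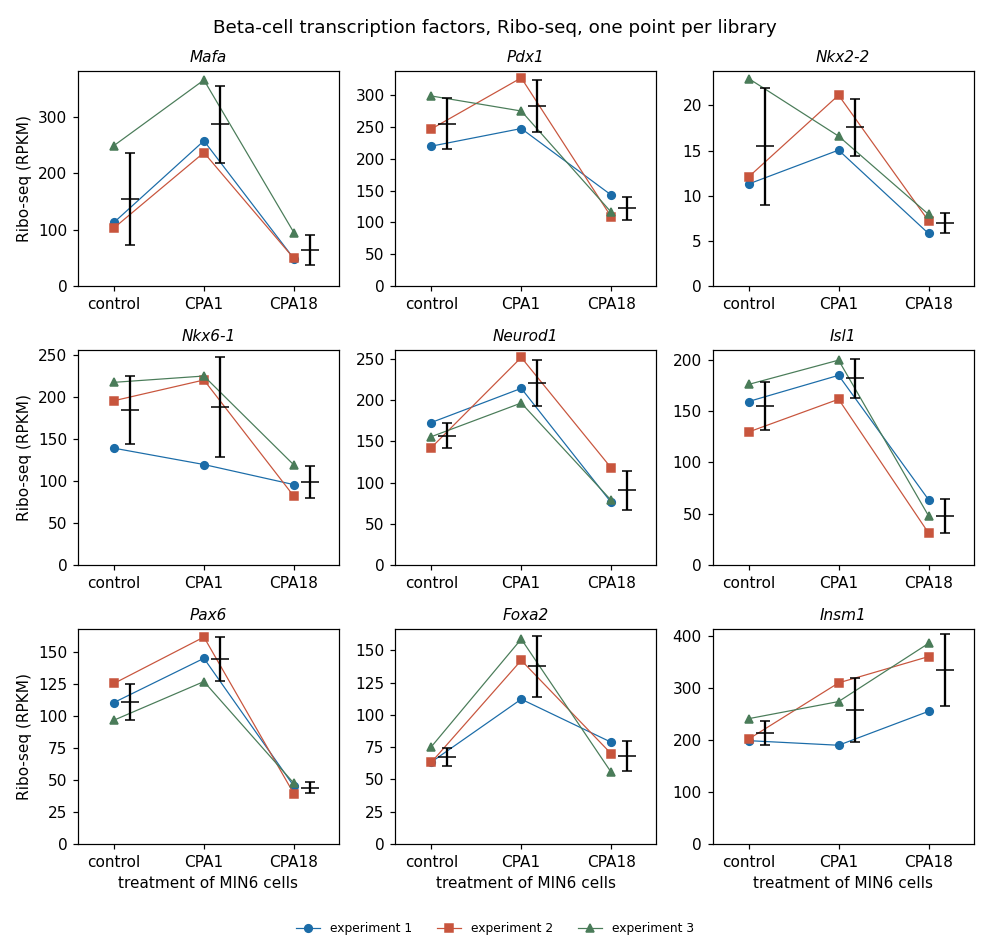
Ribo-seq level (RPKM, linear axis from 0) of each transcription factor in control, CPA1 and CPA18 cells; coloured points joined by lines are experiments 1 to 3, and black bars are mean ± SD. Mafa and Foxa2 peak at CPA1, 7 genes have all CPA18 points under all control points, and Insm1 is highest at CPA18.

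Ribosome footprints of 2 of the 9 genes were called higher at 1 h, where the mRNA test had called none. These calls do not test a difference between the assays, which was tested separately further below. In CPA1 against control, Mafa and Foxa2 rose and 0 fell, while 3.75% of all genes rose. Footprint levels are scaled to the library total, so such a rise is a larger share of the footprints read. The number of footprints per cell was not measured. Mafa footprints were 113, 103 and 249 RPKM in control and 257, 237 and 365 RPKM in CPA1, higher in 3 of 3 experiments though the groups overlapped. The log2 fold change was +0.97 ± 0.16 (adjusted p = 3.38e-06).

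Foxa2 footprints were 63.5, 63.3 and 75.3 RPKM in control and 112, 142 and 159 RPKM in CPA1, with no overlap. The log2 fold change was +1.03 ± 0.19 (adjusted p = 3.12e-05). Both calls stood under every alternative. Neurod1 and Pax6 footprints also did not overlap, which made 3 of the 9 with Foxa2, against 10.3% of all genes. Neurod1 was at 173, 142 and 156 RPKM in control and 214, 252 and 196 RPKM in CPA1, and the log2 fold change of +0.48 ± 0.17 did not pass (adjusted p = 0.0649). The other 6 ranged from +0.01 (Nkx6-1) to +0.38 (Pax6).

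After 18 h, 7 of the 9 footprint levels fell and 1 rose against control, while among all genes 6.25% fell and 25.6% rose. The same 7 genes that fell in mRNA-seq fell here, and all 7 had control and CPA18 libraries that did not overlap, as 8.75% of all genes did. The median over the 9 genes was −1.08, beside +0.42 over all genes. Without the replicate block 6 fell and 1 rose, against 5.04% and 21.4% of all genes. After centring libraries on the median gene, 13.3% of all genes were called lower and 10.3% higher, and 7 of the 9 were called, all lower.

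Isl1 had the largest fall in footprints. It went from 159, 129 and 176 RPKM in control to 63.6, 31.2 and 47.9 RPKM in CPA18 (log2 fold change −1.74 ± 0.21, adjusted p = 1.03e-11). Pax6 went from 110, 125 and 96.6 to 45.2, 39.2 and 47.4 RPKM (−1.31 ± 0.19, adjusted p = 2.24e-08). In both genes the change in footprints was close to the change in mRNA.

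Mafa footprints fell to 48.5, 48.9 and 94.7 RPKM (−1.23 ± 0.19 against control, adjusted p = 1.34e-07), and Neurod1 footprints to 75.9, 118 and 78.4 RPKM (−0.81 ± 0.19, adjusted p = 3.70e-04). For these 2 genes the footprint change was about 1 log2 unit smaller than the mRNA change. Pdx1 went from 220, 247 and 299 RPKM to 143, 109 and 116 RPKM (−1.08 ± 0.19, adjusted p = 1.15e-06).

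Nkx6-1 went from 139, 195 and 217 to 95.5, 81.7 and 119 RPKM (−0.90 ± 0.20, adjusted p = 2.03e-04). Nkx2-2 fell from a mean of 15.4 ± 6.53 RPKM to 5.81, 7.21 and 7.93 RPKM (−1.18 ± 0.46, adjusted p = 0.0376). The Nkx2-2 call was lost without the replicate block (adjusted p = 0.0795) and without any 1 of the 3 experiments (adjusted p from 0.0632 to 0.391), as it was in CPA18 against CPA1 (0.0701 without the block, 0.0799 to 0.152 without 1 experiment).

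Foxa2 footprints had returned to 78.8, 69.9 and 55.6 RPKM at 18 h, and the log2 fold change against control was −0.05 ± 0.22 (adjusted p = 0.886). Insm1 footprints rose from 198, 201 and 241 RPKM to 255, 360 and 385 RPKM (+0.63 ± 0.16, adjusted p = 0.00128). Its CPA18 libraries were all above its control libraries, as for 31.0% of all genes. Relative to the median gene the rise was +0.21. The Insm1 call was lost under TMM factors (+0.23, adjusted p = 0.358), after centring on the median gene (+0.19, adjusted p = 0.512), by DESeq2 (+0.25, adjusted p = 0.395), without the control libraries of experiment 2 (+0.48, adjusted p = 0.0661) and without all libraries of experiment 2 (+0.53, adjusted p = 0.0609).

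From CPA1 to CPA18, footprints of 8 of the 9 genes fell and 0 rose, while 5.41% of all genes fell. Mafa fell most, at −2.20 ± 0.20 (adjusted p = 1.05e-17), and Foxa2 fell by 1.08 (SE 0.22, adjusted p = 5.21e-05). The groups of all 8 did not overlap, as for 7.0% of all genes. Insm1 was at +0.38 ± 0.16 (adjusted p = 0.0775).

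**Figure D3:**
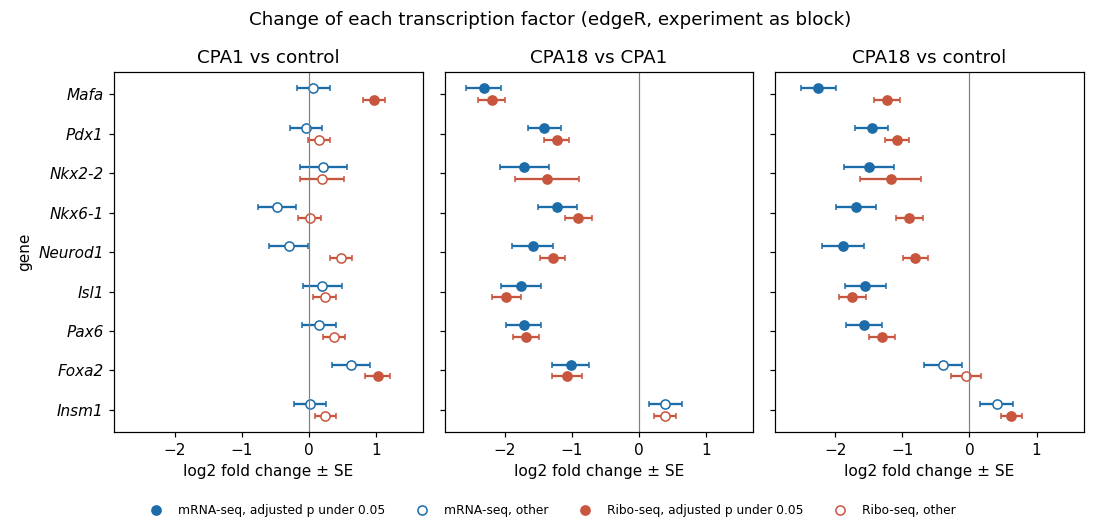
Log2 fold change ± SE of each transcription factor in the 3 comparisons, for mRNA-seq (blue) and Ribo-seq (red), with filled points where the adjusted p is under 0.05. Of the 9 genes, 0 mRNAs and 2 footprint levels are filled in CPA1 against control, and 7 and 8 in CPA18 against control.

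Ribosome occupancy, the Ribo-seq RPKM divided by the mRNA-seq RPKM of the same experiment, differed widely between the factors in control cells. By the ratio of mean RPKM, Mafa had the lowest value, 0.471, at percentile 9.78 of all genes, whose median was 1.20. Isl1 at 4.44 (percentile 94.3), Neurod1 at 3.94 (percentile 92.5) and Nkx6-1 at 2.80 (percentile 85.0) were the highest. Mafa was under all other factors in each control experiment, at 0.598, 0.334 and 0.509. RPKM counts the whole transcript in both assays, and the coding part makes up 38.3% of the Mafa, 41.6% of the Isl1 and 43.0% of the Neurod1 transcript, but 60.7% of the Nkx6-1 transcript.

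A change in occupancy was tested as an interaction between assay and treatment. Of the 9 genes 0 passed in each of the 3 comparisons, with edgeR calling 0.0866% of all genes higher in CPA1 against control, 0.462% in CPA18 against control and 0.0577% in CPA18 against CPA1. At an unadjusted p under 0.05 there were 2, 3 and 0 of the 9, against 7.12%, 9.18% and 5.99% of all genes. DESeq2 called 1 (Neurod1) in CPA18 against control and none in the others, and limma called none.

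Mafa occupancy was 0.992, 0.824 and 0.846 in CPA1 and 1.31, 0.631 and 1.07 in CPA18, above all control values in both, as for 5.33% and 4.16% of all genes. The log2 interaction was +0.91 ± 0.30 at CPA1 (adjusted p = 0.322) and +1.02 ± 0.32 at CPA18 (adjusted p = 0.163). Neurod1 occupancy was 2.90, 3.54 and 7.97 in control, 5.28, 6.33 and 12.8 in CPA1 and 7.63, 8.83 and 11.8 in CPA18. Within each experiment Neurod1 occupancy was higher after CPA than in control, as for 18.6% of all genes at CPA1 and 16.6% at CPA18. The occupancy of the median gene also moved, from 1.40, 1.13 and 1.19 in control of experiments 1 to 3. It was 1.81, 1.55 and 1.01 in CPA1 and 2.00, 1.05 and 0.974 in CPA18.

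The Neurod1 interaction was +0.77 ± 0.31 at CPA1 (adjusted p = 0.544) and +1.07 ± 0.34 at CPA18 (adjusted p = 0.177 by edgeR and 0.0452 by DESeq2). Its mRNA was lower and its footprints were higher in 3 of 3 experiments at CPA1, though the mRNA log2 ratio in experiment 2 was only −0.016. Nkx6-1 occupancy also rose within each experiment, from 1.47, 3.35 and 4.92 in control to 3.83, 4.53 and 7.43 in CPA18 (+0.80 ± 0.33, adjusted p = 0.431). With Insm1 these made 4 of 9 genes with a higher occupancy in all 3 experiments at CPA18, against 16.6% of all genes. Isl1 had a log2 interaction of −0.19 ± 0.35 (adjusted p = 0.922). Foxa2 mRNA and footprints were both higher in 3 of 3 experiments at CPA1. Its log2 interaction there was +0.39 ± 0.33 (adjusted p = 0.888).

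**Figure D4:**
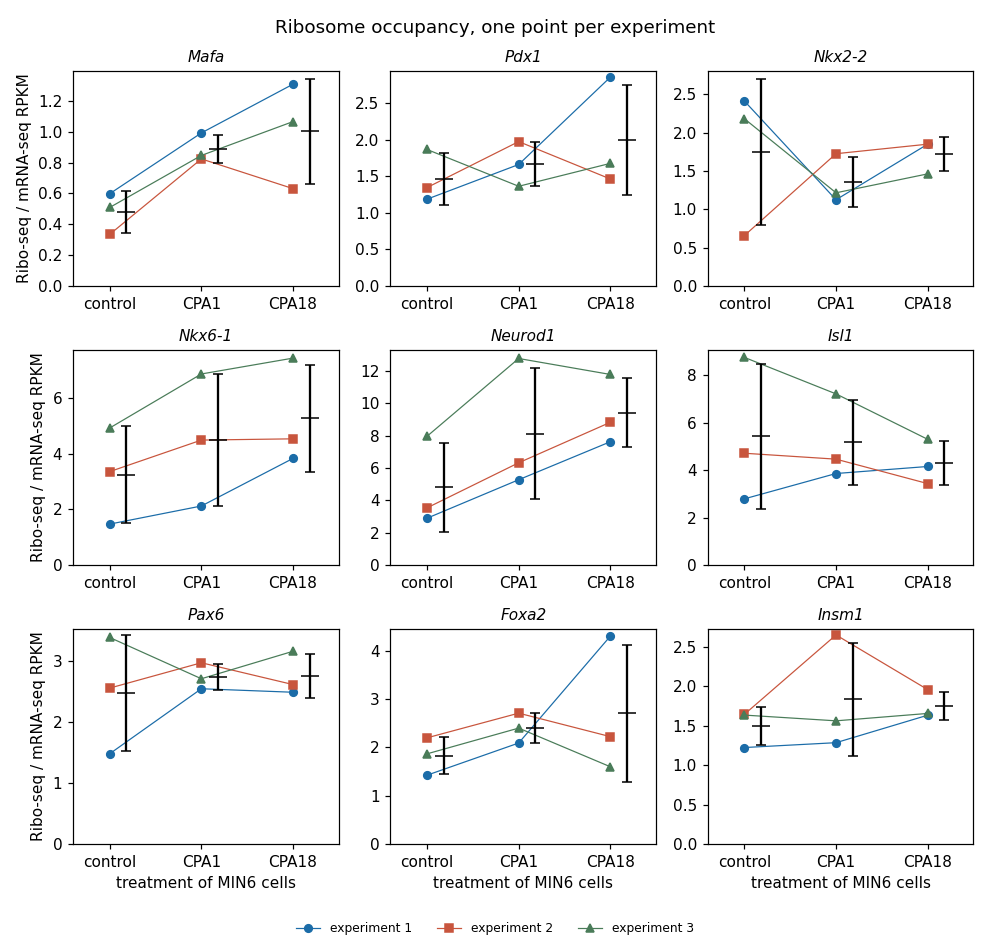
Ribosome occupancy (Ribo-seq RPKM over mRNA-seq RPKM, linear axis from 0, scales differ between panels) of each transcription factor in control, CPA1 and CPA18 cells; coloured points joined by lines are experiments 1 to 3, and black bars are mean ± SD. Mafa is at most 0.598 in controls and at least 0.631 after CPA, and Neurod1 is higher after CPA within each experiment.

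With a threshold of 0.32 on log2 ratios of mean RPKM, the rule that sorted the transcripts of this series into response groups, 6 of the 9 mRNAs were unchanged in the acute and lower in the chronic phase and overall (group G6), as were 8.05% of all genes. Neurod1, with an acute log2 ratio of −0.319, lay just inside the threshold. Nkx6-1 was lower in both phases (G4, −0.51 and −1.23), Foxa2 rose and then fell (G2, +0.60 and −1.03), and Insm1 was higher in the chronic phase only (G3, +0.38). When the same group was required in each of the 3 experiments, 0 of the 9 mRNAs were in G6, G4 or G2. In ribosome occupancy Neurod1 alone had a group, higher in both phases (G7, +0.81 and +0.39), as 6.87% of all genes were, and it had none when Ins1 and Ins2 were taken out of the totals or when the group was required in each experiment.

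Other genes of the same network were read from 4 lists, in which no mRNA was called in CPA1 against control (edgeR). Only genes with reads in every library could be tested, so genes that are silent in one group are not counted. Of 37 other islet transcription factors, 9 were tested. At CPA18 against control 7 mRNAs fell and 0 rose (median −1.67), and 5 fell and 0 rose in footprints (median −0.98). Among all genes 7.89% fell and 27.0% rose in mRNA-seq (median +0.38), and 6.25% fell and 25.6% rose in footprints (median +0.42), and the other 3 lists are to be read against the same shares. Mnx1, a homeodomain factor of beta-cell fate, went from 81.7, 85.2 and 97.3 to 4.42, 12.4 and 22.5 RPKM (−2.82 ± 0.31, adjusted p = 6.81e-16). Rfx6, a winged-helix factor of endocrine differentiation, was at −2.25 ± 0.35 (adjusted p = 1.14e-08) and the zinc-finger factor Tshz1 at −1.98 ± 0.41 (adjusted p = 4.06e-05). Rfx6 went from 35.2, 8.69 and 7.70 to 2.00, 3.32 and 2.69 RPKM. Tshz1 went from 7.84, 4.69 and 2.03 to 1.14, 1.41 and 0.785 RPKM, and both had their highest control level in experiment 1.

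Of 31 cofactors that bind the factors, 19 were tested, and 3 mRNAs fell and 0 rose (median −0.24), beside 7.89% and 27.0% of all genes. The 3 were the acetyltransferase Ep300 (−1.38 ± 0.52, adjusted p = 0.0279), the DNA methyltransferase Dnmt3a (−1.07 ± 0.33, adjusted p = 0.00642) and the histone methyltransferase Kmt2d (−1.01 ± 0.40, adjusted p = 0.0364). Ep300 went from 2.41, 0.764 and 0.332 to 0.552, 0.361 and 0.191 RPKM, and these groups overlapped. Kmt2d went from 1.45, 0.859 and 0.503 to 0.365, 0.435 and 0.421 RPKM. All 3 had their highest control level in experiment 1. None of these 3 passed in footprints (adjusted p from 0.192 to 0.969), where 1 of the 19, the deacetylase Hdac1, was called lower (−0.63 ± 0.24, adjusted p = 0.0377), a share close to the 6.25% of all genes.

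Of 31 target and functional beta-cell genes, 27 were tested, and 22 mRNAs fell and 1 rose (median −1.25), as did 23 and 1 in footprints (median −1.14), beside 7.89% of all genes lower in mRNA-seq and 6.25% in footprints. Ucn3, a peptide of mature beta cells, went from 23.4, 39.1 and 29.5 to 1.63, 2.13 and 1.88 RPKM (SE of the log2 fold change 0.41, adjusted p = 2.81e-18). Slc2a2, the glucose transporter of rodent beta cells, went from 39.6, 15.1 and 18.4 to 0.940, 3.60 and 1.30 RPKM (−3.27 ± 0.36, adjusted p = 7.51e-16). Nnat, a small ER membrane protein, was at −2.97 ± 0.28 in mRNA (adjusted p = 7.38e-21) and −0.89 ± 0.17 in footprints (adjusted p = 9.02e-06). The 1 gene that rose was Syt4 (+1.22 ± 0.31, adjusted p = 7.89e-04), a synaptotagmin.

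Of 18 disallowed or dedifferentiation genes, 5 were tested, and 1 mRNA rose and 2 fell (median −0.01), beside 27.0% and 7.89% of all genes, so the 1 of 5 that rose is no more than the general share. Slc16a1, a lactate transporter that beta cells normally keep silent, rose from 1.30, 0.686 and 0.844 to 5.63, 3.13 and 3.26 RPKM (+2.03 ± 0.46, adjusted p = 1.71e-04). Gast (−2.25 ± 0.41, adjusted p = 1.47e-06) and Cck (−0.73 ± 0.28, adjusted p = 0.0343), which encode gastrin and cholecystokinin, fell. In footprints 2 of the 5 rose and 1 fell, beside 25.6% and 6.25% of all genes.

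Among the 9 factors, the correlation of a gene's profile with the mean profile of the other 8, over the 18 libraries and centred within each experiment and assay, was 0.849 to 0.972 for the 7 genes that fell, 0.710 for Foxa2 and −0.67 for Insm1. Of 4542 other genes with a mean of at least 5 RPKM in control mRNA-seq, the 5 with the profile most like the mean of the 9 were Tent5a (r = 0.963), Abat (0.961), G6pc2 (0.959), Papss2 (0.958) and Cdkn2c (0.958). Tent5a, a poly(A) polymerase, had mean mRNA levels of 26.9, 40.6 and 5.61 RPKM in control, CPA1 and CPA18. G6pc2, the islet glucose-6-phosphatase subunit, had 380, 395 and 117 RPKM. The points share libraries, and both assays come from the same experiments.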

How the data were processed

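MIN6 libraries (mRNA-seq and Ribo-seq, 3 experiments of control, CPA1 and CPA18) were grouped by their titles. The authors filtered reads by quality and length, aligned them to mouse transcripts with Bowtie2 (GRCm38, both named in the submitters' processing notes), and deposited raw counts per RefSeq transcript. The authors also deposited RPKM, made from the counts, the library total and transcript length. Of 30741 transcripts, 30232 matched RefSeq with their version, 478 without it and 31 not at all. A filter of 1 read or more in each of the 18 libraries kept 10163 transcripts, whose values were added up to 6929 genes.

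Counts were tested by edgeR 4.0.16 (R 4.3.3, quasi-likelihood, total count as library size, experiment as block), with Benjamini-Hochberg adjustment over 6929 genes and a threshold of 0.05. SE is the absolute log2 fold change divided by the square root of F. A change in ribosome occupancy was the interaction of assay and treatment, with a block per experiment and assay. The pairing comes from the experiment numbers in the labels. Deviations of same-numbered libraries from their group means correlated over genes with r from 0.0794 to 0.736 in 18 pairs, 17 of them above 0.1. The range was 0.109 to 0.736 in mRNA-seq and only 0.0794 to 0.188 in Ribo-seq. The lowest mRNA-seq pairs were of experiment 2 (0.109 and 0.117).

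Named genes were all 9 members, the 3 genes of each list with the largest called change in CPA18 against control mRNA-seq, and the 5 most alike in profile, by Pearson's r on log2(RPKM + 0.5). Hdac1 and Syt4 were named after their values were seen. The members and lists were chosen with earlier results of these data known. The other islet factor, cofactor, target, and disallowed gene lists and the cell type markers are given in full count in the report. Alternatives were TMM factors, other library totals, DESeq2 1.42.0, limma 3.58.1, no filter, single transcripts and libraries left out. The edgeR scripts were tested on simulated data. RPKM has no depth of its own, and low counts limit precision. Promoter sequences are from RefSeq (GRCm38.p6).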

Additional observations from a re-analysis of the deposited data

How the results depend on the processing

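The number of the 9 genes called was within 1.5 times the reported count in each comparison under most alternatives. Without the replicate block, the calls in mRNA-seq went from 7 to 1 in CPA18 against control and from 8 to 1 in CPA18 against CPA1, while calls over all 6929 genes went to 137 and 150, and the pairing changed no count of Ribo-seq calls by over 1.5 times. DESeq2 called 1 of the 9 in ribosome occupancy in CPA18 against control. By the 0.32 rule, 7 mRNAs were in group G4 or G6, 6 with controls of experiments 1 and 3 only, and 0 when the same group was required in each experiment. Over the member fold changes in all comparisons and alternatives, 1146 kept their side of the threshold, 30 lost a call, 5 gained one and 0 turned direction while called. Leaving out 1 experiment gave 6 to 7 calls in CPA18 against control and 8 in CPA18 against CPA1 in mRNA-seq, and 6 to 7 in both in Ribo-seq. The main scale left 77.4% of the calls higher in CPA18 against control mRNA-seq and 80.4% in Ribo-seq, beside 46.9% and 46.4% with TMM factors. Leaving out the control mRNA-seq library of experiment 1, chosen after seeing the data, gave 7 calls in CPA18 against control. Summing the top Pax6 transcript alone lost its Ribo-seq call (adjusted p = 0.0623), and Nkx6-1 lost its call in CPA18 against CPA1 Ribo-seq without experiment 2 (adjusted p = 0.0556). With 3 experiments, and 2 to 9 reads of the kept Nkx2-2 transcript in CPA18 Ribo-seq, low counts limit that gene most.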
